A study of Mus musculus with 21 samples.

Results

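Bone morphogenetic protein 4 (Bmp4), its type I receptor Bmpr1a, the Id genes Id1, Id2, Id3 and Id4, and the inhibitory Smad gene Smad6 were followed across mouse embryonic stem cells kept in different maintenance media. The 7 genes were taken by name, as the rows whose mouse Ensembl identifier carries one of these symbols, out of 31053 gene rows in each count table. The rule uses names alone, and 6 of the 7 passed the filter on low counts. Smad6 did not pass and was not tested.

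All 21 libraries were mRNA-seq of E14Tg2a, a male embryonic stem cell line of 129 background that carries a GFPd2 reporter knocked into 1 allele of Rex1 (Zfp42). The labels give 7 groups of 3 libraries: 2i+LIF at PO, and 2i+LIF, CH+LIF and LIF alone, each at LP and at HP. PO occurs in 2i+LIF only and was read as the zero-passage start. The series describes culture for 1 and 2 months, but no label says which of these LP or HP is, so the names are kept. By the growth protocol, which is the same text for every library, cells first spent 1 week in serum-free NDiff227 medium with 3 uM CHIR99021 and 1 uM PD0325901. CH, PD and LIF were then given or withdrawn from passage to passage. CHIR99021 inhibits the kinase GSK3 and so favours Wnt signalling, PD0325901 inhibits MEK and so blocks ERK signalling, and LIF signals through STAT3. The pair of inhibitors is usually called 2i. The libraries share 1 cell line, and the labels do not say whether replicates were separate cultures, so p-values measure only the spread between these libraries, which may be technical.

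BMP4 is a secreted ligand of the TGF-beta family. It binds a complex of type I receptors such as BMPR1A and type II receptors such as BMPR2, which phosphorylate SMAD1, SMAD5 and SMAD9. These join SMAD4 in the nucleus and switch on Id genes, whose helix-loop-helix proteins lack a DNA-binding region and hold E proteins such as TCF4 away from DNA, and Smad6, which feeds back to block the pathway. In serum-free culture of mouse embryonic stem cells, BMP4 together with LIF is known to support self-renewal, and Id proteins are known to hold back neural differentiation.

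Gene counts per library ranged from 1132126 to 3783043. CPM values below (counts scaled to library size) also use TMM, a correction for library composition. A pair of libraries stood apart: 2i+LIF LP replicate 1 had 31.7% of its gene counts on Gm42418, a gene known to collect ribosomal RNA reads, and 2i+LIF PO replicate 1 had 39.1% on mitochondrial genes, against at most 10.9% and 9.84% in the other 19. Their mean correlations with the other replicates of their groups were 0.787 and 0.83, where every other library reached at least 0.857. File names place the PO libraries in a run of their own, which cannot be told apart from PO itself. The 8 stem cell markers fixed for the check all had counts in every group, with sums of 1281 to 3565 CPM. The sums were 1281 to 1958 CPM in 2i+LIF HP, against 1828 or more in every other library, and their part in the results for that group was not tested. Dusp6, a phosphatase gene transcribed in response to ERK activity, was read against the labels, taking under 10 CPM as low. It was low where the MEK inhibitor is named and high elsewhere in 16 of 21 libraries. It went against the label in 5: all 3 of LIF HP (0 to 1.23 CPM), where no MEK inhibitor is named, and 2i+LIF LP replicates 2 and 3 (34.4 and 26.3 CPM). Whether labels were exchanged was not tested. The groups are therefore called by their labels only, and each direction between media holds for the labels as deposited.

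The sequence upstream of the RefSeq gene start (GRCm38.p6) is shown for Bmp4 and for 3 members with the GC-rich letters GGCGCC, because the ligand, its receptor and its target genes are read side by side below. RefSeq promoter entries were matched for 6 of the 7 members, and there was none for Id1. The Id3 window lay wholly inside an annotated exon and is not printed. Of the Bmpr1a and Id2 windows only the part outside annotated exons is given, and both stretches lie within the annotated gene, since GENCODE starts it further upstream than RefSeq. Capitals mark GGCGCC, a GC-rich element known from SMAD1 binding, and GTCT or its reverse complement, the short SMAD box.
Bmp4, upstream of the RefSeq start, chr14:46390670-46390919, minus strand: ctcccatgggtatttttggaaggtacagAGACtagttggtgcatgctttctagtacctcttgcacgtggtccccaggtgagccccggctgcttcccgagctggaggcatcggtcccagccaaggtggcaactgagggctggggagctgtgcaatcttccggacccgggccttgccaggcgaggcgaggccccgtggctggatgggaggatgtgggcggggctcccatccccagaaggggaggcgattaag
Bmpr1a, upstream of the RefSeq start, chr14:34502688-34502796, minus strand: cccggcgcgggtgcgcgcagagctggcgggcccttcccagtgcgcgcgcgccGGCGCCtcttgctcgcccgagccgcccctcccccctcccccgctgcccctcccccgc
Id2, upstream of the RefSeq start, chr12:25096254-25096342, minus strand: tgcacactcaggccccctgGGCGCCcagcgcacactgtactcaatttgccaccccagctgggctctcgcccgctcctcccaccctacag
Id4, upstream of the RefSeq start, chr13:48260866-48261115, plus strand: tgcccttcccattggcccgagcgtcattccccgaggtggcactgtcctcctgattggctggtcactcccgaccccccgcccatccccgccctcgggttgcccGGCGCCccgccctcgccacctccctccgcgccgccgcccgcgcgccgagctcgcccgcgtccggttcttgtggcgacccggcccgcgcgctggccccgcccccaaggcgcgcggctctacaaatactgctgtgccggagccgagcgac
Motifs were searched on both strands in the 250 bases before each start. GGCGCC occurred once each in the windows of Bmpr1a, Id2 and Id4, and in 9.59% of all 32851 RefSeq promoter windows. GTCT occurred in the windows of Bmp4, Id2, Id3 and Smad6, and in 82.9% of all windows; the Id2 match lies outside the part printed. Neither TTCNNNGAA, the STAT letters (7.02% of all windows), nor CTTTGA, the TCF letters (13.8%), occurred in any of the 6. GC content of the 6 windows was 62.8 to 78.8%, against a median of 52.4% over all. These matches describe letters and not binding.

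Bmp4, the ligand, had group means that spanned 32.4 to 742 CPM. The gene lies on chromosome 14 (46383520 to 46390669, minus strand, GENCODE M21 on GRCm38; ENSMUSG00000021835). In replicate order, PO had 157.2, 47.1 and 44.1 CPM of Bmp4, 2i+LIF LP had 21.7, 849 and 699, CH+LIF LP had 658, 719.7 and 847, and LIF LP had 351, 547 and 499. At HP there were 41.8, 70.3 and 132 CPM with 2i+LIF, 374, 426 and 462 with CH+LIF, and 27.3, 33.9 and 36.1 with LIF. All CH+LIF libraries and all LIF LP libraries were high, all PO, 2i+LIF HP and LIF HP libraries were low, and 2i+LIF LP held 1 low library beside 2 high ones. Group means ran from 742 ± 96.7 CPM (SD, n = 3) in CH+LIF LP through 2i+LIF LP (523 ± 441), LIF LP (466 ± 102) and CH+LIF HP (421 ± 44.2), to 2i+LIF PO (82.8 ± 64.5), 2i+LIF HP (81.5 ± 46.2) and LIF HP (32.4 ± 4.55). Neighbours in this order overlapped, except CH+LIF HP with PO and 2i+LIF HP with LIF HP.

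Within LIF, Bmp4 fell from LP to HP by 3.85 ± 0.74 on the log2 scale (SE; a 14.4-fold lower level; edgeR adjusted p = 0.00199), with no overlap of libraries. In that contrast 3 of the 6 tested members passed the adjusted p of 0.05, all lower at HP, where 9.96% of all 10643 genes passed in either direction, 5.33% higher and 4.63% lower. Bmp4 kept this call in all 29 alternative settings, with adjusted p up to 0.0153. At HP it was lower in LIF than in CH+LIF by a log2 difference of -3.70 ± 0.73 (13-fold; edgeR adjusted p = 0.0103; background 1.47% of genes). That call was lost without LIF HP replicate 1, 2 or 3 (adjusted p 0.0509 to 0.0751). Neural marker sums were 203.8 to 218.3 CPM in LIF LP against 93.6 to 145.8 in LIF HP, and 134.2 to 141.6 against 61 to 63.2 with CH+LIF, while in 2i+LIF LP (115.2 to 255.3) and HP (41.2 to 161.7) overlapped. The 7 fibroblast markers summed to 11.3 to 36.9 CPM in LIF LP (5 with counts) and 7.39 to 9.79 in LIF HP (2 with counts). Mesoderm, primitive endoderm and trophoblast marker sums overlapped between LIF LP and LIF HP. Reads without a unique place made up 23.11 to 25.62% of all entries in LIF LP and 30.26 to 35.45% in LIF HP. Reads outside genes made up 16.96 to 24.59% and 8.461 to 16.69%. The part of these markers and reads in the results was not tested.

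In 2i+LIF, Bmp4 fell from LP to HP by 2.70 ± 0.69 on the log2 scale (edgeR adjusted p = 0.0244; background 3.67%), although 2i+LIF LP replicate 1 lay below every HP library. Without that library the LP mean was 774 ± 106 CPM (n = 2) and the log2 difference was -3.23 (adjusted p = 9.95e-05). The call was lost in a fit of these groups alone (adjusted p = 0.317), and without 2i+LIF LP replicate 2 or 3 or 2i+LIF HP replicate 1 or 2 (0.0604 to 0.12). Marker sums of other cell types in 2i+LIF HP stand beside this fall and that of Id1 below. The 5 mesoderm markers fixed for the check summed to 18.2 to 40.3 CPM in 2i+LIF HP, with 4 of 5 present and Hand2 at 0, against 0 to 5.17 in 2i+LIF LP and at most 13.2 in every library of the other groups. Of 7 primitive endoderm markers 5 had counts in 2i+LIF HP, with Gata4 and Sox7 at 0. They summed to 4.18 to 24.5 CPM there, overlapping 2i+LIF LP (4.74 to 8.39). The 6 trophoblast markers summed to 26.5 to 66 CPM, with Elf5 and Gcm1 at 0, and overlapped PO (20.9 to 45.9) and 2i+LIF LP (12.9 to 41.4). The other groups lay below: CH+LIF LP (8.72 to 11.5), LIF LP (4.65 to 16), CH+LIF HP (9.54 to 17.5) and LIF HP (14.8 to 24.7). The part of these markers in the falls of Bmp4 and Id1 was not tested. Nor was their part in the differences of CH+LIF HP and LIF HP from 2i+LIF HP given below.

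In CH+LIF the LP and HP libraries did not overlap, but the difference of -0.82 ± 0.65 did not pass (edgeR adjusted p = 1; background 0.0094%).

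At HP, the CH+LIF level of Bmp4 was 5.21 times that of 2i+LIF (log2 difference 2.38 ± 0.68) with no overlap of libraries, yet it missed the threshold (edgeR adjusted p = 0.075; background 2.02%). Without 2i+LIF LP replicate 1 or 2i+LIF PO replicate 1, which belong to neither group, the adjusted p was 0.00112 and 0.0335. Those libraries enter through the shared estimate of the spread. The 2i+LIF HP and LIF HP libraries did not overlap either, and the difference of -1.32 ± 0.69 did not pass (edgeR adjusted p = 0.29; background 3.78%), but passed without the pair of libraries that stand apart (0.00835).

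Bmpr1a, the type I receptor gene, kept to a narrower range than Bmp4. It lies on chromosome 14 (34410734 to 34503341, minus strand). It ranged from 18.5 to 71.1 CPM over the 21 libraries, with a median of 43.4 CPM. Group means were 64.8 ± 10.3 CPM in LIF LP, 46.8 ± 25.6 in 2i+LIF LP, 46.5 ± 16.1 with CH+LIF at LP, 45.7 ± 10.2 in 2i+LIF HP, 45.6 ± 4.31 in CH+LIF HP, 33.2 ± 12.7 in LIF HP and 23.5 ± 3.99 in PO (SD, n = 3 each). Neighbours in this order overlapped, except CH+LIF HP with LIF HP. It passed in none of the 9 contrasts between media or between passages. Its lowest unadjusted p among these was for LIF, where the 71.1, 70.4 and 52.9 CPM at LP lay above the 39.7, 41.3 and 18.5 CPM at HP (log2 difference -0.94 ± 0.40; edgeR adjusted p = 0.13). That difference passed in a fit of these groups alone (0.0222) and without the pair of libraries that stand apart (0.0331).

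Id1 had the same high and low groups as Bmp4. The gene lies on chromosome 2 (152736251 to 152737410, plus strand). PO had 8.97, 6.01 and 3.74 CPM of Id1, 2i+LIF LP had 6.31, 104 and 117, CH+LIF LP had 107, 95.6 and 62.3, and LIF LP had 52.9, 81.7 and 77.4. At HP there were 6.97, 19.1 and 20.1 CPM with 2i+LIF, 78.5, 46.3 and 95.2 with CH+LIF, and 14.9, 16 and 16.5 with LIF. The low library of 2i+LIF LP was again replicate 1. By mean the order was CH+LIF LP (88.2 ± 23.1 CPM), 2i+LIF LP (75.8 ± 60.6), CH+LIF HP (73.3 ± 24.9), LIF LP (70.7 ± 15.5), LIF HP (15.8 ± 0.789), 2i+LIF HP (15.4 ± 7.31) and PO (6.24 ± 2.62). Only LIF LP and LIF HP did not overlap among neighbours in this order.

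From LP to HP, Id1 fell by 2.16 ± 0.60 on the log2 scale in LIF (4.46-fold; edgeR adjusted p = 0.0224) and by 2.34 ± 0.60 in 2i+LIF (5.05-fold; 0.0238). Without 2i+LIF LP replicate 1 the 2i+LIF difference was -2.85 (adjusted p = 0.000124), and in a fit of these groups alone the call was lost (0.319). At HP, Id1 was 4.84-fold higher in CH+LIF than in 2i+LIF (log2 difference 2.28 ± 0.60; edgeR adjusted p = 0.042), and all 3 CH+LIF libraries lay above all 2i+LIF libraries. LIF HP lay below CH+LIF HP without overlap, at a difference of -2.21 ± 0.60 that missed the threshold (edgeR adjusted p = 0.0595) and passed with DESeq2. CH+LIF LP and HP overlapped (log2 difference -0.27 ± 0.55; edgeR adjusted p = 1).

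These 3 calls of Id1 rest on few libraries. The call in LIF was lost without LIF LP replicate 2 or 3 or any 1 LIF HP library (adjusted p 0.0541 to 0.0793). That in 2i+LIF was lost without 2i+LIF LP replicate 2 or 3 or any 1 2i+LIF HP library (0.0603 to 0.0903). That between CH+LIF and 2i+LIF at HP was lost without any 1 library of either group, CH+LIF LP replicate 2, LIF LP replicate 2 or 3, or LIF HP replicate 1 or 3 (0.0511 to 0.169). The difference between LIF HP and CH+LIF HP instead passed without PO replicate 1, 2i+LIF LP replicate 1 or 2i+LIF LP replicate 3 (0.00173 to 0.0481).

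Id3 was high in 1 group, CH+LIF HP. The gene lies on chromosome 4 (136143497 to 136145755, plus strand). In CH+LIF HP it had 68.1, 51 and 42.6 CPM, against 4.65, 6.54 and 0 CPM in 2i+LIF HP and 1.03, 2.46 and 3.09 CPM in LIF HP. Of the other groups, PO had 4.22, 16.2 and 18.4 CPM, 2i+LIF LP had 0, 24.5 and 11.2, CH+LIF LP had 9.69, 10.9 and 31.9, and LIF LP had 7.71, 0 and 7.21. Every CH+LIF HP library lay above every other library, and no count was found in 3 libraries. The means followed the order CH+LIF HP (53.9 ± 13 CPM), CH+LIF LP (17.5 ± 12.5), PO (13 ± 7.65), 2i+LIF LP (11.9 ± 12.3), LIF LP (4.98 ± 4.32), 2i+LIF HP (3.73 ± 3.37) and LIF HP (2.19 ± 1.06), where neighbours after the first overlapped.

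At HP, Id3 was 13-fold higher in CH+LIF than in 2i+LIF (log2 difference 3.70 ± 0.90; edgeR adjusted p = 0.0237). It was 25.5-fold lower in LIF than in CH+LIF (-4.67 ± 1.00; edgeR adjusted p = 0.0162). The low groups held only 22 and 9 counts in all, which limits both folds. The first call was lost without any 1 2i+LIF HP library or CH+LIF HP replicate 1 or 2 (adjusted p 0.0686 to 0.121), and the second without any 1 LIF HP library or CH+LIF HP replicate 1 (0.0594 to 0.0988). From LP to HP in CH+LIF the libraries did not overlap, but the difference of 1.65 ± 0.79 did not pass (edgeR adjusted p = 0.914). Over the 29 alternatives it ran from 1.34 to 2.39 and never passed.

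Id2 had another pattern: it was low in PO and LIF HP and spread widely in 2i+LIF. The gene lies on chromosome 12 (25093799 to 25097140, minus strand). PO had 12.1, 5.75 and 14 CPM of Id2, 2i+LIF LP had 2.1, 36.6 and 67.1, CH+LIF LP had 53.8, 35.7 and 27.3, and LIF LP had 17.6, 60.4 and 61.6. At HP there were 10.7, 73 and 53.7 CPM with 2i+LIF, 24, 11.9 and 21.3 with CH+LIF, and 6.7, 7.39 and 1.03 with LIF. Its 2i+LIF HP mean of 45.8 ± 31.9 CPM stood beside LIF LP (46.5 ± 25), CH+LIF LP (38.9 ± 13.5) and 2i+LIF LP (35.3 ± 32.5), above CH+LIF HP (19.1 ± 6.34), PO (10.6 ± 4.31) and LIF HP (5.04 ± 3.49). All neighbours in this order overlapped. Replicates 2 and 3 of 2i+LIF HP were thus high for Id2 in the group where all libraries were low for Bmp4 and Id1.

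Id2 fell from LP to HP in LIF by 3.09 ± 0.80 on the log2 scale (8.49-fold; edgeR adjusted p = 0.0151). At HP it was 8.3-fold lower in LIF than in 2i+LIF (-3.05 ± 0.80; edgeR adjusted p = 0.0304). Neither pair of groups overlapped. The first call was lost without LIF LP replicate 2 or LIF HP replicate 3 (adjusted p 0.0575 to 0.0784), and the second without 2i+LIF HP replicate 2 or 3 or any 1 LIF HP library (0.0676 to 0.136). Between CH+LIF HP and 2i+LIF HP the Id2 libraries overlapped and the difference of -1.26 ± 0.71 did not pass (edgeR adjusted p = 0.535), where Id1 and Id3 were both higher in CH+LIF HP.

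Id4, the fourth Id gene, passed in no contrast. It lies on chromosome 13 (48261228 to 48266026, plus strand) and ranged from 7.87 to 58.2 CPM with a median of 14 CPM. Its highest value was in 2i+LIF LP replicate 1, the library that was lowest or at 0 for Bmp4 and Id3, and its next highest, 36.3 CPM, in PO replicate 2. Group means of 13.4 to 27.2 CPM all overlapped their neighbours, and the mean of 2i+LIF LP was 11.7 ± 3.19 CPM without replicate 1 (n = 2). From LIF LP to LIF HP its log2 difference was -0.35 ± 0.60 (edgeR adjusted p = 0.764).

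Smad6, the inhibitory Smad gene on chromosome 9 (63953076 to 64022059, minus strand), had 69 counts in all 21 libraries. Its levels ran from 0 to 5.98 CPM and were 0 in 3 libraries, 1 each of PO, 2i+LIF LP and LIF HP. In those libraries a count of 0 allows up to 3 counts, which is 1.58, 2.1 and 3.09 CPM. Mean levels ran from 3.71 ± 1.97 CPM in LIF LP to 0.549 ± 0.519 CPM in LIF HP, and neighbours overlapped. LIF LP had 2.75, 5.98 and 2.4 CPM (19 counts) and LIF HP 1.03, 0.616 and 0 (3 counts), where the limit of 3.09 CPM for that 0 lies above the LIF LP values of 2.4 and 2.75. With no filter on low counts, Smad6 passed in none of 15 contrasts and had no unadjusted p under 0.05 by edgeR. For LIF HP against LIF LP the log2 difference was then -2.45 (edgeR adjusted p = 0.342).

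**Figure D1:**
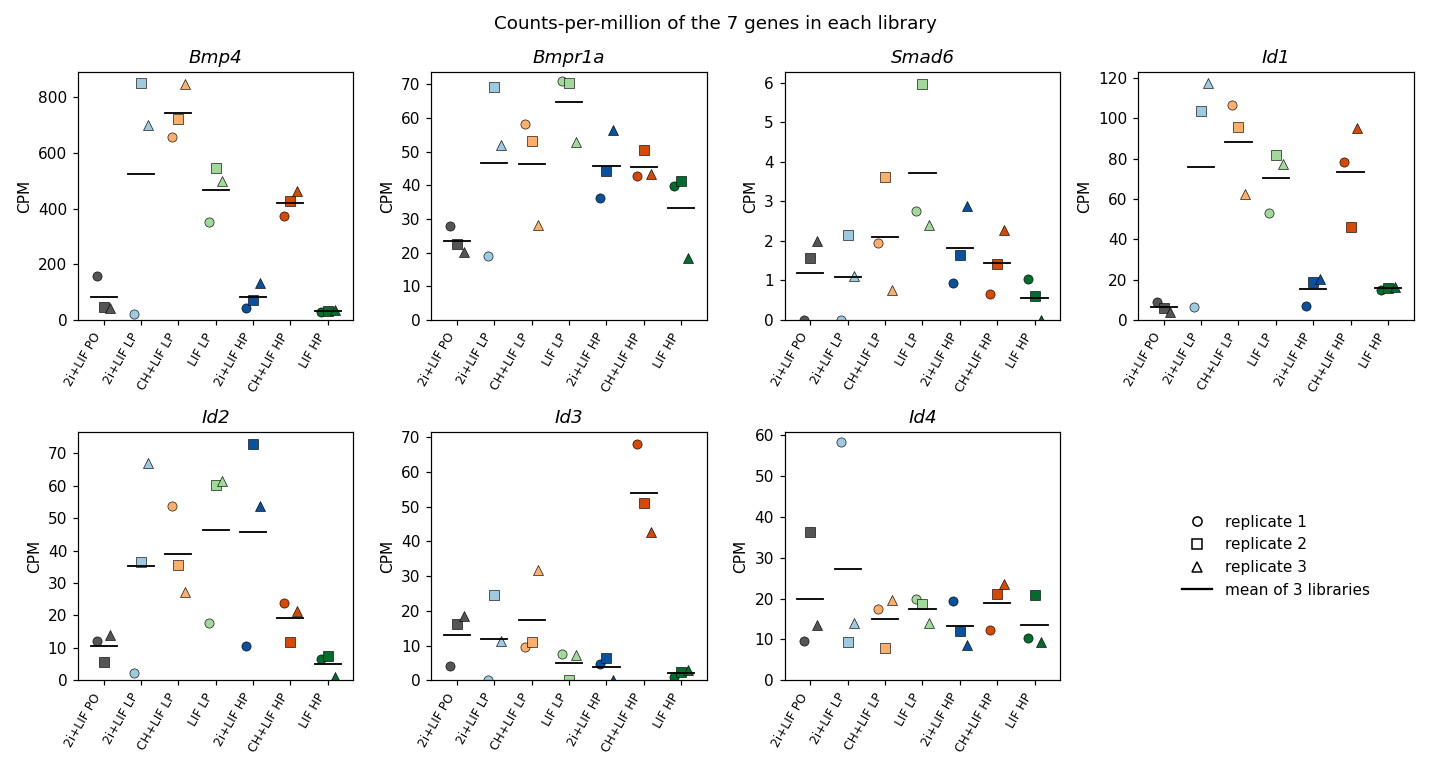
Counts-per-million (TMM-scaled, linear axes from 0) of the 7 genes in each of 21 libraries, by group; circles, squares and triangles are replicates 1, 2 and 3 and bars are means of 3 libraries. Bmp4 and Id1 are low in all PO, 2i+LIF HP and LIF HP libraries and in 2i+LIF LP replicate 1, and Id3 is highest in the 3 CH+LIF HP libraries.

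Per kilobase of annotated exon, the median level over 21 libraries was 156.1 CPM per kb for Bmp4, 39.9 for Id1, 8.75 for Id2, 6.84 for Bmpr1a, 4.31 for Id3, 3.63 for Id4 and 0.489 for Smad6. On this scale the ligand was more abundant than its receptor in every group mean, from 14.4 against 5.22 CPM per kb in LIF HP to 329.9 against 7.32 in CH+LIF LP. Id1 was the most abundant Id gene per length by mean in 5 of the 7 groups, and Id2 in 2i+LIF HP and Id3 in PO were the exceptions. In bulk RNA, fewer cells that express a gene and less RNA per cell cannot be told apart.

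In the 9 comparisons between media or between HP and LP, 10 of 54 member tests passed, 2 higher and 8 lower, where 2.38% of all gene tests passed, 1.21% higher and 1.17% lower. They came from Bmp4 (3), Id1 (3), Id2 (2) and Id3 (2). No member passed between media at LP, and none between LP and HP in CH+LIF. Those contrasts called few genes at all: 0%, 0.489% and 0.047% of genes between media at LP. At LP no member reached an unadjusted p of 0.05 by edgeR, and DESeq2 found none that differed among the media there. DESeq2 called 11 of the 54 tests in all.

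**Figure D2:**
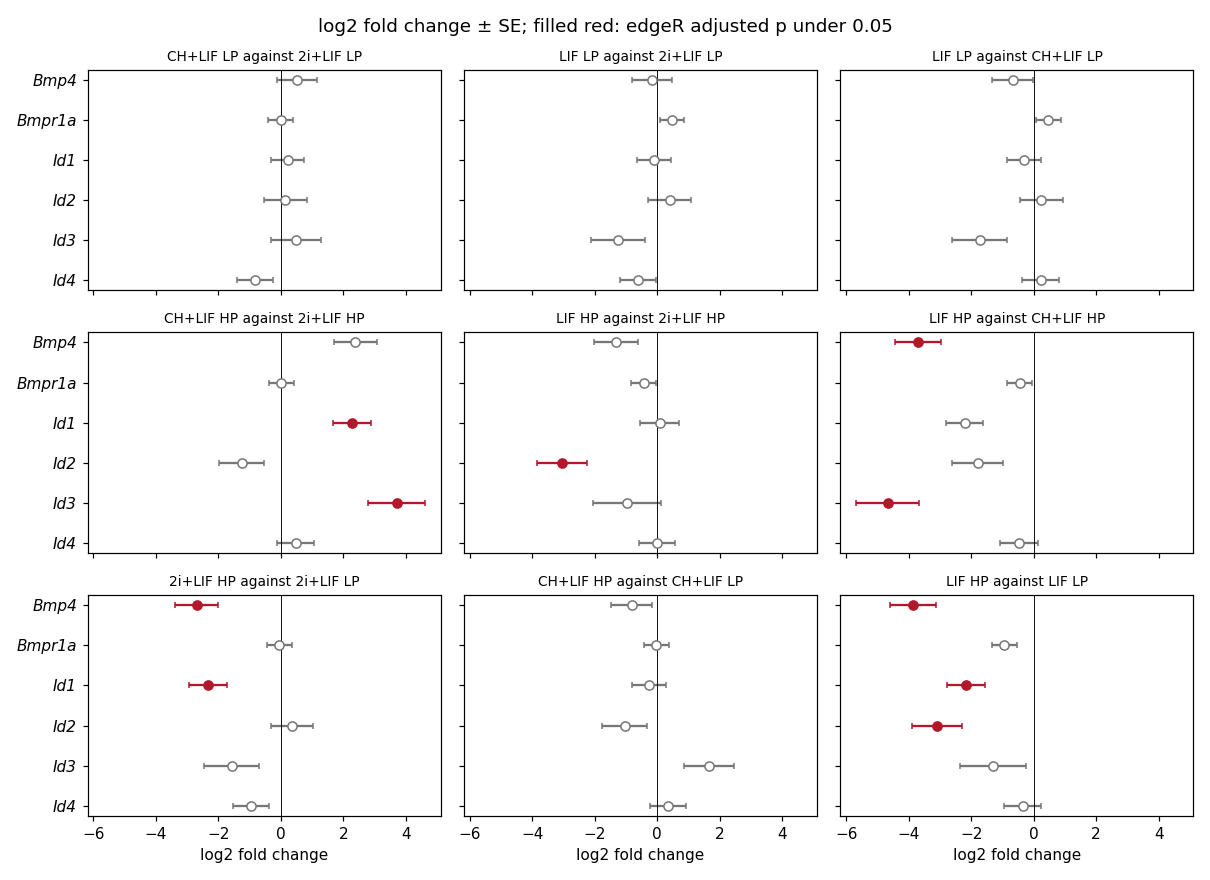
Log2 fold changes (points) with their standard errors (bars) of the 6 tested members in 9 contrasts, first group against second; filled red points have an edgeR adjusted p under 0.05. The 10 filled points lie in the contrasts at HP and in those of HP against LP in 2i+LIF and LIF, and none lies in the top row, the media at LP.

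Tests of any difference gave the same division by passage. Among the 3 media at HP, Bmp4 (edgeR adjusted p = 0.0028), Id3 (0.00231) and Id1 (0.0145) differed, 3 of 6 members against 5.12% of all genes, and Id2 missed the threshold (0.0504); DESeq2 called 4. Among the media at LP none of the 6 did, against 0.376% of genes, with adjusted p of 0.669 or more. Over all LP and HP groups Bmp4 (0.000699), Id3 (0.00317) and Id1 (0.00601) differed, against 13.1% of genes.

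Whether the change from LP to HP differed between media was tested directly, and none of 18 member tests passed with edgeR or DESeq2, while 6 had an unadjusted p under 0.05. Among all genes 0.0188% passed for CH+LIF with 2i+LIF, 0.15% for LIF with 2i+LIF and 0.423% for LIF with CH+LIF. The lowest adjusted p were 0.182 for Id2 in LIF with 2i+LIF (log2 difference of changes -3.44 ± 1.05) and 0.194 for Bmp4 in LIF with CH+LIF (-3.03 ± 0.95). That of Id2 ran from -4.28 to -2.89 over the 29 alternatives. It passed in 1 of them, with no filter on low counts (edgeR adjusted p = 0.000228). Without 2i+LIF LP replicate 1, 2 passed: Bmp4 in LIF with CH+LIF (-3.06; adjusted p = 0.00853) and Id1 in CH+LIF with 2i+LIF (2.59; 0.0305). Without the pair of libraries that stand apart, 5 passed.

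Against PO, 9 of 36 member tests passed, all higher than PO, where 9% of all gene tests passed and 4.86% did so as higher. These 6 contrasts share the PO libraries. Id3 lay in the other direction in LIF HP, below PO without overlap (log2 difference -2.66 ± 1.00), and missed the threshold (edgeR adjusted p = 0.0782). It passed as lower without 2i+LIF LP replicate 1 (0.0236) and without the pair of libraries that stand apart (0.0083). In CH+LIF HP, Id3 lay above PO without overlap and also missed it (2.02 ± 0.78, edgeR adjusted p = 0.12). There it passed in 3 of 29 alternatives, 1 of them without 2i+LIF LP replicate 1 (0.0349). Id1 was 12.5-fold higher in 2i+LIF LP (log2 difference 3.65 ± 0.63; edgeR adjusted p = 0.00166), 14.5-fold in CH+LIF LP (0.00045), 11.6-fold in LIF LP (0.000662) and 12-fold in CH+LIF HP (0.00151). Bmp4 was higher in the same groups, by 6.37-fold (edgeR adjusted p = 0.024), 9.02-fold (0.00666), 5.66-fold (0.0177) and 5.12-fold (0.04). In 2i+LIF HP and LIF HP neither passed: Bmp4 stood at log2 differences of -0.03 ± 0.66 and -1.35 ± 0.68, and Id1 at 1.31 ± 0.63 and 1.38 ± 0.63. Without PO replicate 1 the Bmp4 differences were 0.82 and -0.53, so the first changed sign. Without 2i+LIF LP replicate 1, Bmp4 passed as lower in LIF HP (0.0322), and Id1 passed as higher in 2i+LIF HP (0.0307) and LIF HP (0.0257). The background in these contrasts was 5.06% of genes in 2i+LIF LP, 8.31% with CH+LIF at LP, 12% in LIF LP, 10.6% in 2i+LIF HP, 5.82% in CH+LIF HP and 12.3% in LIF HP.

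Bmpr1a was 2.76-fold higher in LIF LP than in PO (1.46 ± 0.40, edgeR adjusted p = 0.018), with no overlap of libraries. In 2i+LIF LP, CH+LIF LP, 2i+LIF HP and CH+LIF HP its log2 differences of 0.95 to 1.01 did not pass (edgeR adjusted p 0.122 to 0.152). Each of these passed without the pair of libraries that stand apart (0.0138 to 0.0471). In LIF HP the difference was 0.52 ± 0.40 (edgeR adjusted p = 0.417). Id2 in LIF LP just missed the threshold (log2 difference 2.13 ± 0.72; edgeR adjusted p = 0.0507) and passed in 11 of 29 alternatives, DESeq2 among them (adjusted p over the 29 from 0.000218 to 0.161). In 2i+LIF HP it also missed it (2.10 ± 0.72; edgeR adjusted p = 0.0581) and passed in 6 of 29, DESeq2 among them (0.000359 to 0.233). Both Bmp4 and Id1 in 2i+LIF LP lost their calls in a fit of these groups alone (0.395 and 0.242). Leaving out PO replicate 1 changed none of the 9 calls, but its Bmp4 level of 157.2 CPM stood above the other PO libraries, whose mean was 45.6 ± 2.08 CPM (n = 2). Without it the log2 differences of Bmp4 from PO moved from 2.67 to 3.52 in 2i+LIF LP, 3.17 to 4.01 with CH+LIF at LP, 2.50 to 3.36 in LIF LP and 2.36 to 3.20 with CH+LIF at HP. Without both libraries that stand apart, Id1 in 2i+LIF LP moved from 3.65 to 4.48 and Bmp4 there to 4.08.

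The count against PO depends on single libraries. It was 20 of 36 without 2i+LIF LP replicate 1, and 5 without PO replicate 2 and also without PO replicate 3. Calls of Bmp4 were lost without PO replicate 2 or 3 in 2i+LIF LP, LIF LP and CH+LIF HP, and also without 2i+LIF LP replicate 2 or 3, LIF LP replicate 2 and any 1 CH+LIF HP library in their own contrasts (adjusted p 0.0597 to 0.135). The call of Bmpr1a was lost without PO replicate 2 or 3 or LIF LP replicate 1 or 2 (0.0548 to 0.0652).

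**Figure D3:**
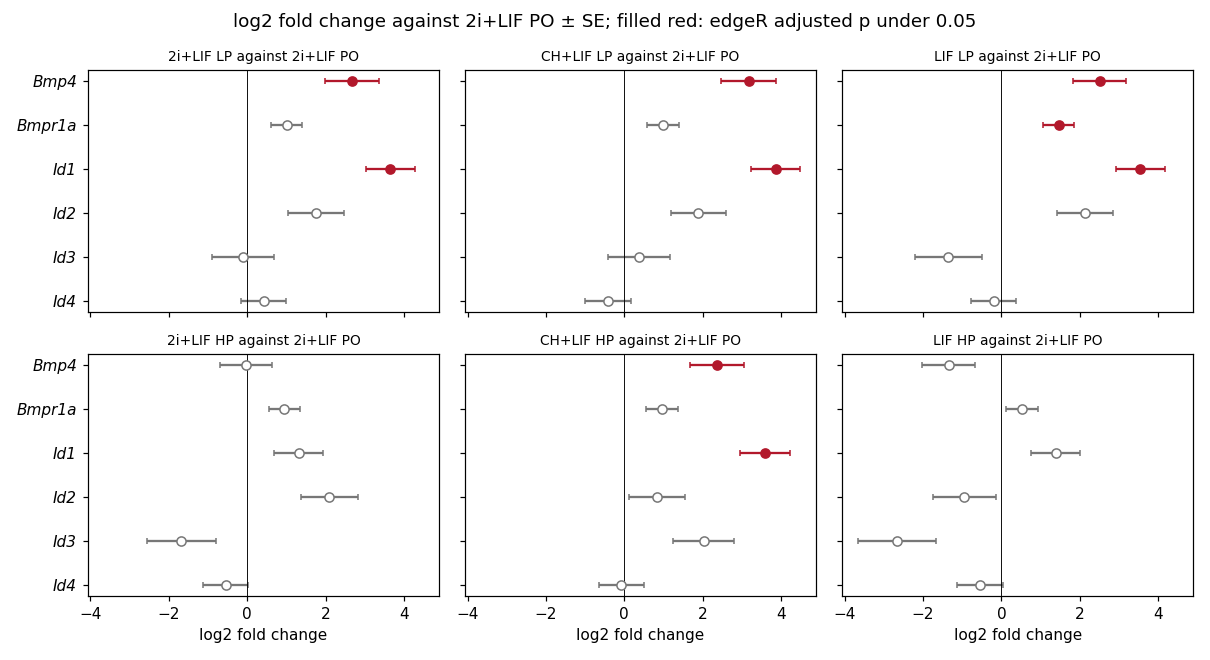
Log2 fold changes (points) with their standard errors (bars) of the 6 tested members in each LP or HP group against 2i+LIF PO; filled red points have an edgeR adjusted p under 0.05. Bmp4 and Id1 are filled in the 3 LP groups and CH+LIF HP and not in 2i+LIF HP or LIF HP.

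Bmp4 and Id1 split the libraries at the same place, and so did Dusp6. The 9 PO, 2i+LIF HP and LIF HP libraries and 2i+LIF LP replicate 1 had 21.7 to 157.2 CPM of Bmp4, 3.74 to 20.1 CPM of Id1 and 0 to 4.91 CPM of Dusp6. The other 11 libraries had 351 to 849 CPM of Bmp4, 46.3 to 117 CPM of Id1 and 15.3 to 47.1 CPM of Dusp6, with no library between. This division was seen in the values and was not tested. The part of ERK signalling or of the named inhibitors in it was not tested.

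**Figure D4:**
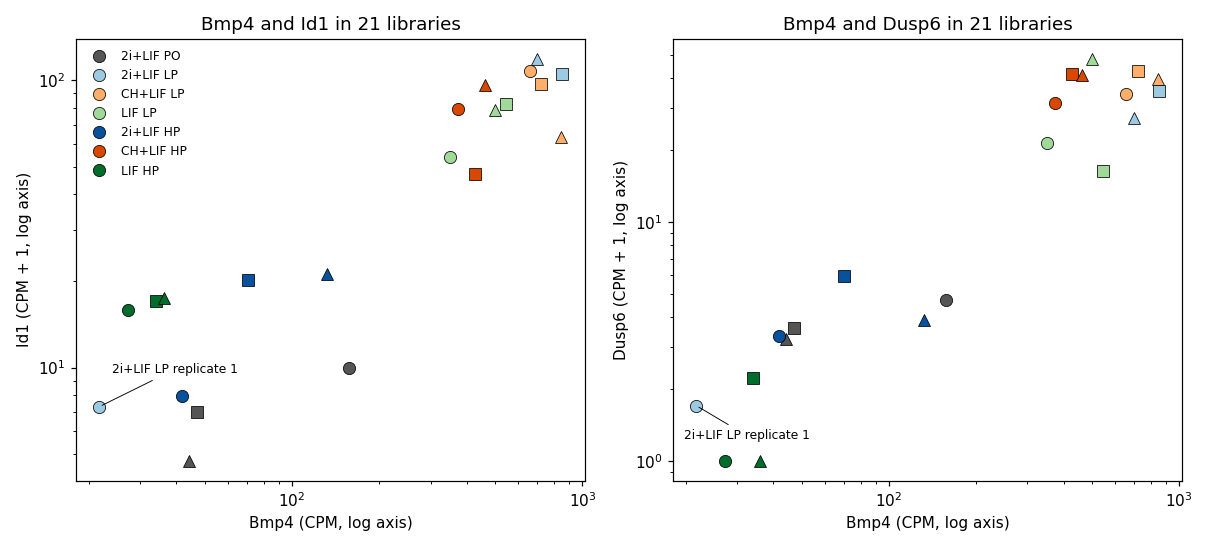
Bmp4 against Id1 (left) and against Dusp6 (right) in 21 libraries, CPM on log axes, with 1 CPM added on the vertical axis; colours are groups and shapes replicates (circle 1, square 2, triangle 3). The 10 libraries at the lower left have at most 157.2 CPM of Bmp4 and the 11 at the upper right at least 351, and 2i+LIF LP replicate 1 lies with the lower ones.

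Over the 18 LP and HP libraries, the Pearson correlation of log2 CPM between Bmp4 and Id1 was 0.95. Bmp4 correlated at 0.71 with Id2, 0.62 with Bmpr1a, 0.60 with Id3 and -0.20 with Id4. Id2 and Id3 correlated at 0.21. These libraries share groups, a cell line and a run, and the coefficients only describe the values. For Bmp4 and Id1 the coefficient spans the gap between the clusters of libraries given above. Among 7685 genes with a mean of at least 10 CPM, the genes most like Bmp4 were Slc7a7 (0.96), an amino acid transporter, and Dusp6 (0.95). Those most like Id1 were Bmp4 (0.95) and Tiparp (0.95), those most like Id2 were Dhx40 (0.89) and Glul (0.87), glutamine synthetase, and those most like Id3 were Prpf3 (0.86) and Trh (0.84). For Bmpr1a they were Nek7 and 5730455P16Rik (0.83 each), and for Id4 Nek1 (0.81) and Zcwpw1 (0.77).

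Beside the 7 members, 61 other genes of the pathway were read: ligands, antagonists, receptors, Smads, regulators, further targets and the E proteins that Id proteins bind. Of these 36 passed the filter and 12 passed the test in at least 1 of the 9 contrasts, where 14.3% of all 10643 genes did. Those 12 include Cdx2 and Msx1, which entered the test only through 2i+LIF HP. The most calls were in LIF HP against LIF LP (2 higher, 4 lower), 2i+LIF HP against 2i+LIF LP (2 and 4) and CH+LIF against 2i+LIF at HP (3 and 3). Cdx2 and Msx1 are the 2 higher in the second and 2 of the 3 lower in the third. The background by direction was 5.33% of genes higher and 4.63% lower, 1.63% and 2.05%, and 1.1% and 0.921%. The list's median log2 differences there were -0.43, -0.01 and -0.13, against 0.01, 0.01 and -0.01 over all genes. Without the pair of libraries that stand apart 18 list genes were called, and with only the groups compared in each fit 21.

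Among extracellular genes, Bmp7, another ligand, was lower with CH+LIF (5.5 ± 2.02 CPM at HP) than with 2i+LIF (31 ± 9.39; edgeR adjusted p = 0.04), opposite to Id1. It rose from 4.51 ± 4.76 CPM in LIF LP to 19 ± 1.43 in LIF HP (edgeR adjusted p = 0.0443), where Bmp4 fell; its log2 difference of 2.06 was 3.41 without LIF LP replicate 1. Fstl1, a secreted follistatin-like protein, was higher with CH+LIF (194 ± 27.2 CPM at HP) than with 2i+LIF (37.6 ± 11.7; edgeR adjusted p = 0.00402). Fst, follistatin, which binds activin and BMPs, had 1 count in all of LIF HP, against 34 in LIF LP, 41 in CH+LIF HP and 52 in 2i+LIF HP, and passed in all 3 contrasts (edgeR adjusted p 0.0147, 0.0234 and 0.00866). The 2i+LIF HP libraries ran from 1.92 to 24.5 CPM of Fst, and the log2 difference of LIF HP from them, -5.12, was -2.96 without 2i+LIF HP replicate 2. Without LIF HP replicate 2, which held the 1 count, LIF HP was at 0 and a fitted difference (-7.25 from 2i+LIF HP) is no measured fold. The ratio of LIF LP to LIF HP was 28.5, with a counting interval of 4.79 to 1160.

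Of the receptors, the type II receptor gene Bmpr2 fell in LIF from 59.3 ± 6.03 CPM at LP to 12.2 ± 4.74 at HP (log2 difference -2.28 ± 0.47; edgeR adjusted p = 0.00332), beside the fall of Bmp4. Eng, a coreceptor gene, fell in 2i+LIF from 21.1 ± 11.1 to 5.33 ± 3.01 CPM (edgeR adjusted p = 0.0374). Tcf4, an E protein that Id proteins bind, fell in LIF from 239.6 ± 46.1 to 49.4 ± 20.2 CPM (-2.28 ± 0.45; edgeR adjusted p = 0.00235). The Bmpr2 and Tcf4 calls held in all 29 alternatives.

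The regulator Zfp423, a zinc-finger partner of SMADs, was the list gene called most often. It had 325 counts in LIF LP (60.2 ± 6.8 CPM) against 11 in LIF HP (1.96 ± 2.4), a log2 difference of -4.69 ± 0.65 (edgeR adjusted p = 8.06e-05), which was -6.24 without LIF HP replicate 1. In 2i+LIF it had 108 counts at LP and none at HP, at least 32.7-fold lower by a floor of 3 counts over the group (edgeR adjusted p = 0.000152). CH+LIF HP, with 76 counts, was at least 25.7-fold higher than 2i+LIF HP (edgeR adjusted p = 0.000798). It was also lower in LIF HP than in CH+LIF HP (-2.65 ± 0.66; edgeR adjusted p = 0.04), and at -4.20 without LIF HP replicate 1. Like Bmp4 and Id1, Zfp423 was thus lower in 2i+LIF HP and LIF HP than in the LP groups of the same media. Unlike them, it was not low in 2i+LIF LP replicate 1, since every 2i+LIF LP library had at least 13.3 CPM.

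Cdx2 and Msx1, homeobox genes that BMP induces in trophoblast or mesoderm, each had 71 counts in 2i+LIF HP. Cdx2 had none and Msx1 had 1 in CH+LIF HP, and they had 3 and 0 in 2i+LIF LP. Both genes passed the filter on low counts only through 2i+LIF HP, so being tested required them to be high there, and their calls support nothing. The mesoderm, trophoblast and primitive endoderm marker sums of 2i+LIF HP are given with Bmp4 above, and their part here was not tested.

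Tbx3, a T-box factor of naive pluripotent cells, fell in 2i+LIF from 441 ± 97.8 CPM at LP to 117 ± 25.3 at HP (log2 difference -1.91 ± 0.36; edgeR adjusted p = 0.00215), and at HP was higher with CH+LIF (323 ± 87.8) than with 2i+LIF (1.46 ± 0.35; edgeR adjusted p = 0.0236). Prdm1, a germ cell regulator, fell in 2i+LIF from 24.4 ± 8.79 to 6.81 ± 1.24 CPM (edgeR adjusted p = 0.015). Tfap2c, another germ cell and trophoblast factor, was higher in LIF HP (142.1 ± 17.8 CPM) than in LIF LP (43.6 ± 14.9; edgeR adjusted p = 0.00739), CH+LIF HP (33 ± 2.96; 0.00619) and 2i+LIF HP (51.6 ± 23.5; 0.0331). Its direction in LIF was opposite to that of Bmp4, Id1 and Id2.

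**Figure D5:**
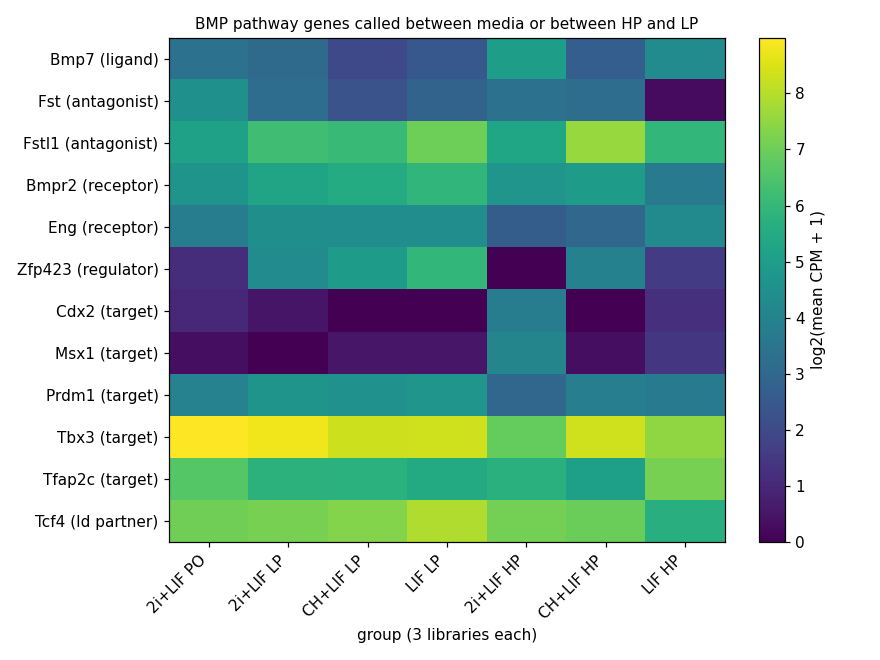
Mean CPM of 3 libraries per group, as log2(mean CPM + 1), for the 12 listed BMP pathway genes called in at least 1 of 9 contrasts, with their roles. Zfp423 is dark in PO, 2i+LIF HP and LIF HP, while Cdx2 and Msx1 are brightest in 2i+LIF HP.

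Many calls of list genes depended on single libraries. Between CH+LIF and 2i+LIF at HP, Bmp7 (adjusted p 0.0504 to 0.183) and Tbx3 (0.0854 to 0.148) each lost the call without at least 4 single libraries in turn, and Fstl1 and Zfp423 kept it throughout. In LIF HP against CH+LIF HP, Fst and Zfp423 lost it without each of 6 and 9 libraries (0.0526 to 0.211), and Tfap2c without CH+LIF HP replicate 2 (0.0526). In 2i+LIF HP against 2i+LIF LP, Eng lost it without each of 4 libraries (0.0567 to 0.205), and Prdm1 without LP replicate 3 or HP replicate 2 or 3 (0.0538 to 0.0614). Both and Tbx3 also lost it in a fit of those groups alone (0.0686 to 0.259). In LIF HP against LIF LP, Bmp7 lost it without each of 12 libraries (0.051 to 0.156), Fst without LIF HP replicate 1 or 3 (0.0574 to 0.0622) and Tfap2c without LIF LP replicate 2 (0.0548). Between LIF and 2i+LIF at HP, Fst lost it without 2i+LIF HP replicate 2 or LIF HP replicate 1 (0.0504 to 0.16), and Tfap2c without any 1 LIF HP library or 2i+LIF HP replicate 2 or 3 (0.079 to 0.152). With counts thinned to the smallest library, the calls of Fst (0.0591) and Zfp423 (0.0525) in LIF HP against CH+LIF HP were lost, as were Tfap2c in LIF HP against 2i+LIF HP (0.0507) and Bmp7 in LIF HP against LIF LP (0.0502).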

How the data were processed

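Whole-number counts per Ensembl gene, not normalized, were deposited by the authors for each of 21 libraries. Per the submitters' processing notes, bcl2fastq, STAR 2.6.0a, HTSeq and mm10 were used; annotation, strand setting and filters are not given in the sources used here. Symbols came from GENCODE M21 (31011 of 31053 identifiers matched). Closing entries of the tables (reads outside genes, ambiguous or not unique) stayed out of library sizes; genes took 47.4 to 62% of all entries. Bmp4, Bmpr1a and Id4 overlap genes on the opposite strand, which held 0 to 21 counts against 739 or more for these members. Of the list genes named, Eng overlaps Fpgs, Tbx3 overlaps Tbx3os1 and Fst overlaps Gm47040, and the part of these overlaps in their calls was not tested.

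Members and lists were chosen with earlier results of these data known. Tests used edgeR 4.0.16 (R 4.3.3): TMM, filterByExpr (10643 genes), 1 quasi-likelihood fit of all 21 libraries by group with 14 residual degrees of freedom, two-sided, Benjamini-Hochberg within each contrast, threshold 0.05. Standard errors were the log2 fold change divided by the square root of F. Alternatives were DESeq2 1.42.0, its size factors, no filter, thinned counts, a replicate block, other library sizes, only the groups compared, and leaving out libraries. All members, list genes called in at least 1 of 9 contrasts and the 2 genes most correlated with each tested member were named. In simulated counts (10351 genes), genes were changed in LIF HP only, and 96 of 4-fold and 96 of 8-fold changes were tested against LIF LP. Of these, 53.1% and 85.4% were called, with 6 false calls. The data called 1060 genes in that contrast and held libraries that stand apart, so these rates need not hold for them. Intervals (95%) and the floor of 3 counts cover counting error only.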

Additional observations from a re-analysis of the deposited data

How the results depend on the processing

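Of the member and list differences followed over the alternatives, 1 changed sign: Bmp4 in 2i+LIF HP against PO, near 0 at -0.03. It was 0.01 without mitochondrial genes and Gm42418, and 0.82 without the pair of libraries that stand apart. When 1 library was left out it ran from -0.55 to 0.82, with no call. The media at LP and most Id4 differences were not followed. There, group means could change order without 2i+LIF LP replicate 1. The 2i+LIF LP mean of Bmp4 then rose from 523 to 774 CPM, past CH+LIF LP (742). The Id4 mean of 2i+LIF LP dropped from 27.2 to 11.7 CPM, below CH+LIF LP (15), 2i+LIF HP (13.4) and PO (19.8). The 10 member calls over 9 contrasts became 14 with no filter on low counts and 14 without that pair, and ranged from 4 to 12 when each library was left out. The 9 calls against PO became 18 with no filter and 21 without that pair, and ranged from 5 to 20 when 1 library was left out. The 0 calls in interactions became 3 with no filter, 5 without that pair and 3 with only the groups compared, and ranged from 0 to 2 when 1 library was left out; the cause was not tested.

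Replicate numbers are shared across groups, but nothing in the labels says they mark a shared passage or day. Deviations of log2 CPM from the mean of each library's own group were compared between same-numbered libraries. They correlated at over 0.1 in all 3 pairs only between 2i+LIF LP and PO (0.397, 0.345 and 0.179). With a replicate block the counts were 10 over 9 contrasts, 9 against PO, 3 among LP and HP groups, 0 among media at LP, 3 among media at HP and 0 interactions.

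Depth limits the values of Smad6, with 69 counts in all, and the folds of Id3.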
